A study of Mus musculus with 10 samples.

Results

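The genes that build the kinetochore, run the spindle checkpoint and trigger anaphase were examined in diploid mouse embryonic stem (ES) cells and in 4 ES cell lines that each carry 3 copies of 1 autosome. The set holds 38 named genes, listed by function, with earlier results of these data known when it was chosen. All 38 were found on the array under those names and entered the test of 28193 genes. The control (WT) is the male diploid line AB1, taken at passages 18 and 20. Ts6, Ts8, Ts11 and Ts15, each named for the chromosome it has in 3 copies, were taken at passages 9 and 18, 10 and 13, 8 and 11, and 11 and 14 in that order, and their strain label is 129 S7/SvEvBrd. Each group is a single line with 2 biological replicates and 1 array per replicate. Origin and passage of a line therefore go with its karyotype. The p-values of the group comparisons (limma) measure the spread between passages of a line. Exact permutation tests, used for genes on trisomic chromosomes, treat arrays as separate units although each line gave 2. All cells were grown on irradiated SNL76/7 feeder cells, a fibroblast line, which were depleted by letting the harvest settle before RNA extraction.

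At mitosis each chromosome is attached to the spindle through its kinetochore, a layered protein assembly built on centromeric chromatin. Kinetochores without attached microtubules make Mad2 (the product of Mad2l1), BubR1 (Bub1b) and Bub3 bind Cdc20, which keeps the anaphase-promoting complex inactive. Once all kinetochores are attached, securin (Pttg1) and cyclin B are degraded, separase (Espl1) cuts cohesin, and the sister chromatids part. Cells with an added chromosome have one more chromosome to attach and also more copies of the genes it carries, and 6 of the 38 genes lie on a chromosome that is trisomic in one of these lines. Transcripts of many of these genes peak in G2 and mitosis, so in bulk RNA a smaller share of mitotic cells and less RNA per cell cannot be told apart.

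Many of these genes share promoter letters that the choice of the set did not use. RefSeq promoter windows (GRCm38.p6, 250 bases before to 50 after the start site) were at hand for 31 of the 38 genes. The cell cycle genes homology region (CHR, searched on both strands as TTTGAA and also as TTCGAA) is the element through which the DREAM and MuvB complexes act on G2 and mitosis genes, and CCAAT boxes (CCAAT or its complement ATTGG) are bound by NF-Y. These letters can overlap each other at an end base. CHR letters stood in the windows of 21 of the 31 genes (67.7%), against 21.7% of 27025 genes with a window. CCAAT letters stood in 22 (71.0%), against 41.1% of all genes, and both together in 18 (58.1%), against 8.61%. At least 2 CCAAT boxes were present in 14 of the 31 (45.2%), against 13.3%. The CHR letters also lay close to the start: in 19 of 22 member windows that held them (86.4%) a match fell within the last 100 bases before the start or the 50 after it, against 44.7% of 6316 windows of all genes. Neither motif was found in the windows of Birc5, Mad1l1, Mad2l1, Nuf2, Plk4 and Pttg1. A match describes letters and shows no binding. The 250 bases before the start are given for 4 genes with both motifs, which are the cyclin-dependent kinase Cdk1, cyclin B2 (Ccnb2), topoisomerase II alpha (Top2a) and Espl1, and for the pair with neither motif that had the highest differences in Ts6. Capitals mark the CHR and CCAAT letters on either strand.
Cdk1 (chr10:69352913-69353162, minus strand): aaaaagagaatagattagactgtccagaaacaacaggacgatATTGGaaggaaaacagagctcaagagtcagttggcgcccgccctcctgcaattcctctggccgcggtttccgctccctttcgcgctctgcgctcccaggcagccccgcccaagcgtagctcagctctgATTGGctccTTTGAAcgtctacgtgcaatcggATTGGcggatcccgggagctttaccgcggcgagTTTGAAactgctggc
Ccnb2 (chr9:70421555-70421804, minus strand): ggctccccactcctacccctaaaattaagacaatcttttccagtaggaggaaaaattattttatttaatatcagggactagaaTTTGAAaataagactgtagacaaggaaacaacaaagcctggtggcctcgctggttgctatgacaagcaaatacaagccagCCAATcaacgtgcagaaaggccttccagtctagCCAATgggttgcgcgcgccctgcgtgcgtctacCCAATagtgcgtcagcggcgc
Top2a (chr11:99024190-99024439, minus strand): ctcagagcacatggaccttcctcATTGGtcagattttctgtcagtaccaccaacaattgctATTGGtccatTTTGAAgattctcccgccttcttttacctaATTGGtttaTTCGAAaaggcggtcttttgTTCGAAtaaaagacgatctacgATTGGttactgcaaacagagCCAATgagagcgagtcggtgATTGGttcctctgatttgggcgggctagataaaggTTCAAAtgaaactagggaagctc
Espl1 (chr15:102296043-102296292, plus strand): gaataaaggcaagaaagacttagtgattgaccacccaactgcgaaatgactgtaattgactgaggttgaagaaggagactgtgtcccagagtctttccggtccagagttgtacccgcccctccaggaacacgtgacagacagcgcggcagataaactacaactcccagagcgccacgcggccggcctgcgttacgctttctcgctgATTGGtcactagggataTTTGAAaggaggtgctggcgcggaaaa
Mad2l1 (chr6:66534971-66535220, plus strand): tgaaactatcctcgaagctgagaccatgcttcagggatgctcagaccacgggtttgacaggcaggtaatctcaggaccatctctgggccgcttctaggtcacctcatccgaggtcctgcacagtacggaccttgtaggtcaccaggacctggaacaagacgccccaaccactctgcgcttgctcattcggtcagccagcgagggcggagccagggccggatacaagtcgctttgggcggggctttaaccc
Pttg1 (chr11:43425982-43426231, minus strand): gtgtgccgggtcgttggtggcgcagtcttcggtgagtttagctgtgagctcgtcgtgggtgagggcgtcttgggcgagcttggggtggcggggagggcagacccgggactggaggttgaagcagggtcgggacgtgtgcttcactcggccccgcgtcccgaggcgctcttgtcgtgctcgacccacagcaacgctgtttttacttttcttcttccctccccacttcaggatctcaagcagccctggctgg
In the Cdk1 window the CHR letters and CCAAT boxes alternate over the last bases before the start. Espl1 has 1 ATTGG followed by 1 TTTGAA in the same stretch, and Top2a has 6 CCAAT or ATTGG matches spread over the whole window. The Ccnb2 stretch ends in 3 CCAAT boxes, while those of Mad2l1 and Pttg1 carry no capitals.

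Of the 59305 noncontrol spots per array, 71.4% to 80.2% exceeded background clearly and none was saturated. Levels are log2 of the processed signal relative to the 75th percentile of the array. The probes standing for the 38 genes were well above background on 10 of 10 arrays. Slide 2 held the 2 Ts15 arrays and slide 1 the rest, where each group had a slide column of its own, so group and position on the slide cannot be told apart. All 12 ES cell markers (Pou5f1, Sox2, Nanog and others) were above background on every array, with a mean log2 level of 3.47 to 3.63 and no call against WT in any line. Fibroblast markers (18 genes) were also measurable: 17 passed the filter, Lum did not, and 15 to 17 were above background per array. The log2 of their summed level was 5.65 and 5.67 in WT, with Ts6 at 5.23 and 5.51, Ts8 at 5.51 and 5.31, Ts11 at 5.66 and 5.41 and Ts15 at 5.75 and 5.94. Postn was not above background on 4 arrays and Col5a2 on 1. Against WT the median of the 17 was -0.34, -0.24, -0.23 and 0.13 in Ts6, Ts8, Ts11 and Ts15, with Col5a2 called lower in Ts6 (-1.20 ± 0.30, adjusted p 0.046) and Acta2 called higher in Ts15 (0.65 ± 0.15, adjusted p 0.043). The part of feeder RNA in the differences below was not tested.

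Against diploid cells, members of the set differed by small amounts. Testing with limma and Benjamini-Hochberg adjustment over all genes (call: adjusted p under 0.05) gave 1 call among the 38 genes in Ts6, a rise of Pttg1, where 9.04% of all genes were called. No member was called in Ts8, where 3.49% of all genes were called, in Ts11 (8.13%) or in Ts15 (7.43%), and none in the mean of the 4 lines against WT (3.85%). At an unadjusted p under 0.05 the same limma fit gave 7, 8, 4 and 2 of 38 members in Ts6, Ts8, Ts11 and Ts15 and 5 in the mean of the lines, against 24.9%, 24.7%, 25.3%, 24.4% and 22.6% of all genes. Both arrays of the line lay above both WT arrays for 12, 16, 14 and 9 members in Ts6, Ts8, Ts11 and Ts15, where 27.1%, 31.1%, 26.8% and 27.2% of all genes did, and below them for 7, 7, 7 and 5, where 30.4%, 24.4%, 26.9% and 30.0% did. In the same order of lines the median log2 difference of the members from WT was 0.06, 0.09, 0.07 and 0.05, beside -0.01, 0.04, 0.00 and -0.01 over all genes. The median size of the difference, regardless of sign, was 0.13, 0.14, 0.18 and 0.10 for the members and 0.21, 0.22, 0.22 and 0.21 for all genes.

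The intervals show what these arrays could resolve. A member's 95% confidence interval reached a median of 0.30 to either side of its difference. It lay wholly within 1.5-fold of the diploid level for 24, 25, 28 and 33 members in Ts6, Ts8, Ts11 and Ts15, and within 2-fold for 36, 36, 35 and 38. The remaining intervals reached past 1.5-fold on at least 1 side. Over the 5 groups the means of a member spanned a median of 0.34, against 0.57 over all genes tested, and 17 of the 38 spanned less than 0.3.

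**Figure D1:**
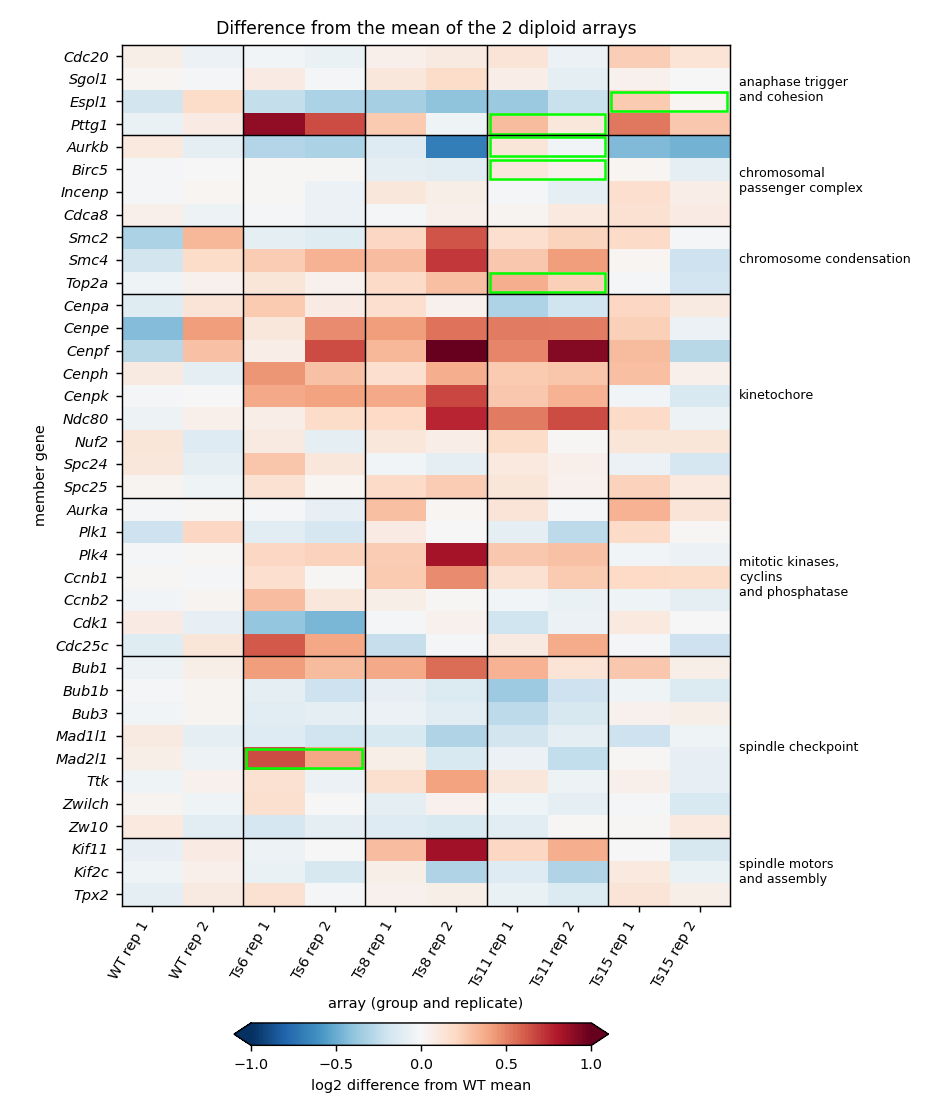
Difference of each array from the mean of the 2 WT arrays on the log2 scale, with the 38 genes in rows grouped by role and the 10 arrays in columns; values beyond 1 in either direction take the end colour, and green frames mark genes on the chromosome trisomic in that line. Most cells are pale; Pttg1 and Mad2l1 stand out in Ts6, and Ts8 replicate 2 is the highest array for 13 genes.

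**Figure D2:**
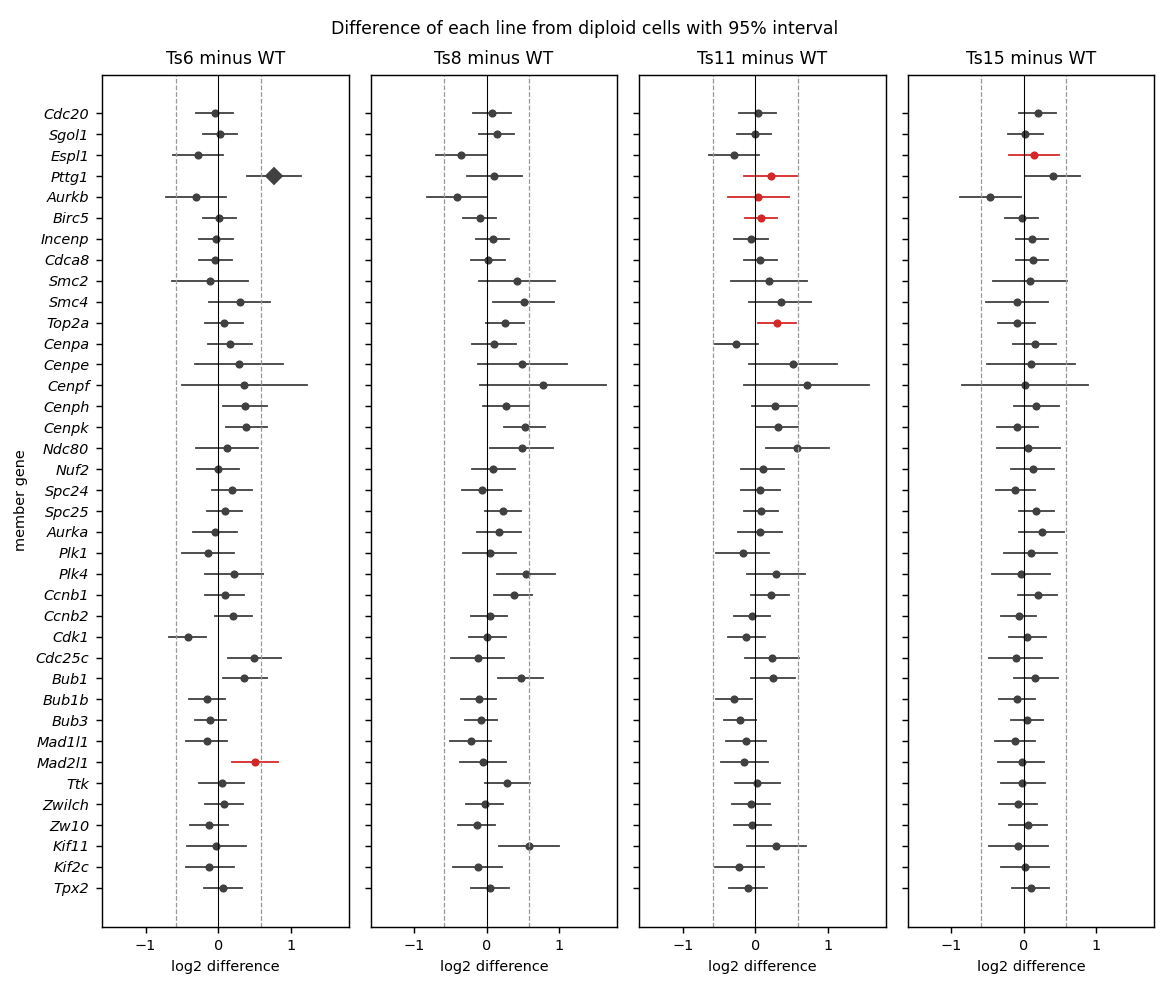
Log2 difference from WT for each of the 38 genes in each line, with the 95% confidence interval of the limma fit; dashed lines mark 1.5-fold, red marks genes on the chromosome trisomic in that line, and the diamond is the called gene. Pttg1 in Ts6 is the called value (0.77), and the interval lies between the dashed lines for 24, 25, 28 and 33 genes from left to right.

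Of the 8 spindle checkpoint genes, Mad2l1 was the one that stood out, in the line with 3 copies of its chromosome. Its probe (mm9, chr6:66490836-66490895) read 3.59 and 3.33 in Ts6, with WT at 3.00 and 2.89, Ts8 at 3.00 and 2.79, Ts11 at 2.88 and 2.69 and Ts15 at 2.95 and 2.86. Both Ts6 arrays lay above all 8 others, which ran from 2.69 to 3.00. The difference of Ts6 from the other 8 arrays was 0.57, a 1.49-fold ratio, with an exact two-sided permutation p of 0.022, the smallest that 45 splits allow (0.13 after Benjamini-Hochberg adjustment over the 6 members on trisomic chromosomes). Among the 8 arrays of slide 1 it was 0.58, with an exact permutation p of 0.036, the smallest that 28 splits allow. These permutations shuffle single arrays and not lines, and only 1 line carries the added copy. For scale, log2(3/2) is 0.58. Against WT alone the limma difference was 0.51 ± 0.14 (SE), with an adjusted p of 0.061, and against the mean of the other lines 0.59 ± 0.11 with an adjusted p of 0.015. The latter call was lost without Ts6 replicate 1, where the difference was 0.46 (adjusted p 0.17). It held without Ts6 replicate 2 (0.72, adjusted p 0.038) and on slide 1 alone (0.61, adjusted p 0.033). Its other probes, at chr6:66490067-66490126 and chr6:66490355-66490414, were 0.75 and 0.43 higher in Ts6 than in WT, so that all 3 probes gave the same direction.

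The remaining checkpoint genes lie on chromosomes that are trisomic in no line. Bub1, a kinase that recruits other checkpoint proteins to the kinetochore and is given here after its values were seen, read 2.20 and 2.31 in WT, with Ts6 at 2.67 and 2.57, Ts8 at 2.63 and 2.81, Ts11 at 2.60 and 2.39 and Ts15 at 2.52 and 2.31. No array of a trisomic line was lower than the higher WT array, though 1 Ts15 array read the same to 2 decimals. Its difference was 0.47 ± 0.13 in Ts8 (adjusted p 0.086) and 0.31 ± 0.10 for the mean of the 4 lines (limma, adjusted p 0.14), the lowest adjusted p of any member in that comparison. Bub1b, Bub3, Mad1l1 (which holds Mad2 at the kinetochore), Ttk (the kinase Mps1), and Zwilch and Zw10 (of the complex that loads dynein and Mad1 on kinetochores) had point estimates from -0.29 to 0.28 against WT in the 4 lines, and none was called. The median over all 8 checkpoint genes was -0.03, -0.06, -0.10 and -0.02 for Ts6, Ts8, Ts11 and Ts15.

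Securin, the inhibitor of separase encoded by Pttg1 on chromosome 11, rose in the line with 3 copies of chromosome 6. Pttg1 (mm9, chr11:43233801-43233860) read 2.79 and 2.55 in Ts6, with WT at 1.83 and 1.98, Ts8 at 2.16 and 1.86, Ts11 at 2.22 and 2.01 and Ts15 at 2.43 and 2.17. The Ts6 arrays were the highest of the 10, and WT and Ts8 held the lowest. Ts6 exceeded WT by 0.77 ± 0.16 on the log2 scale, 1.70-fold (limma, adjusted p 0.027), and the mean of the other lines by 0.53 ± 0.13 (adjusted p 0.037). Leaving out any 1 of the 4 WT and Ts6 arrays ended the call against WT, with differences of 0.65 to 0.89 and adjusted p from 0.054 to 0.18. The call against the other lines was lost without either Ts6 array, Ts8 replicate 2, Ts11 replicate 2 or Ts15 replicate 2, with differences of 0.41 to 0.65. With the mean of all probes both calls ended (0.63, adjusted p 0.10, and 0.55, adjusted p 0.069), and with no filter on dim probes the second did (adjusted p 0.062). On slide 1 alone the values were 0.77 (adjusted p 0.037) and 0.61 (adjusted p 0.042). A dimmer probe (chr11:43234562-43234621) gave 0.49 ± 0.27 against WT and 0.57 ± 0.22 against the other lines, with adjusted p of 0.31 and 0.14 in the fit over all probes. In Ts11, which carries 3 copies of Pttg1, the difference from WT was 0.21 ± 0.16 (adjusted p 0.46), the second probe gave -0.23 ± 0.27, and the difference from the other 8 arrays was -0.11 (exact permutation p 0.76).

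Separase is encoded by Espl1 on chromosome 15 (mm9 probe, chr15:102153644-102153882). It read 1.25 and 1.01 in Ts15, with WT at 0.81 and 1.17, Ts6 at 0.75 and 0.67, Ts8 at 0.66 and 0.59 and Ts11 at 0.62 and 0.77. Ts15 was above every array of the other lines but overlapped WT, whose replicates differed by more than those of any other group for this gene. Against the mean of the other lines the difference was 0.45 ± 0.12 (limma, adjusted p 0.038). Against WT it was 0.14 ± 0.15 (adjusted p 0.60), and -0.04 without WT replicate 1. Against the other 8 arrays it was 0.38, with an exact permutation p of 0.044 and an adjusted value of 0.13. The call against the other lines was lost without any 1 of the 8 arrays of the trisomic lines (differences of 0.33 to 0.57), with quantile normalization (adjusted p 0.052), in the authors' series table (0.055), with no filter on dim probes (0.063) and with the replicate block (0.051). Slide and line cannot be told apart for Ts15. Cdc20, the activator of the anaphase-promoting complex, and Sgol1 (now Sgo1), the shugoshin that protects centromeric cohesin, differed from WT by -0.05 to 0.19 over the 4 lines, with no call.

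The chromosomal passenger complex corrects faulty attachments through its kinase Aurkb, with Birc5 (survivin), Incenp and Cdca8 (borealin) placing it at centromeres. Aurkb and Birc5 lie on chromosome 11 (mm9 probes, chr11:68865105-68865164 and chr11:117714057-117714116). Aurkb read 0.75 and 0.60 in Ts11, with WT at 0.73 and 0.54, Ts6 at 0.34 and 0.31, Ts8 at 0.50 and -0.06 and Ts15 at 0.19 and 0.16. Ts11 lay above the other 3 lines but level with WT: the difference from WT was 0.04 ± 0.18 (limma, adjusted p 0.91), and it was -0.05 without WT replicate 2 and -0.04 without Ts11 replicate 1. Against the mean of the other lines it was 0.43 ± 0.15 (adjusted p 0.12), and against the other 8 arrays 0.33 (exact permutation p 0.11). Against WT, Aurkb had the lowest value of any member in Ts8 (-0.41 ± 0.18, adjusted p 0.21) and in Ts15 (-0.46 ± 0.18, adjusted p 0.17), neither of which was called.

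Birc5 varied least of the members on trisomic chromosomes. Its values were 3.88 and 3.81 in Ts11, with WT at 3.76 and 3.77, Ts6 at 3.78 and 3.78, Ts8 at 3.68 and 3.66 and Ts15 at 3.79 and 3.67. Both Ts11 arrays were above the other 8, by 0.11 on average (exact permutation p 0.067), and the difference from WT was 0.08 ± 0.10 (limma, adjusted p 0.64). For the probe that stood for Birc5, the interval of the Ts11 difference from WT, -0.14 to 0.30, does not reach log2(3/2). Its other probes, at chr11:117711112-117711171 and chr11:117716978-117717037, gave higher differences from WT in Ts11. These were 0.26 ± 0.12 and 0.16 ± 0.12, with adjusted p of 0.24 and 0.48 (limma, fit over all probes). Incenp and Cdca8 differed from WT by -0.06 to 0.12 across the lines.

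Chromosome condensation is served by Smc2 and Smc4, the ATPases of condensin, and by Top2a, which untangles sister DNAs. Top2a lies on chromosome 11 (mm9 probe, chr11:98855522-98855581) and read 3.15 and 3.03 in Ts11, with Ts8 at 2.98 and 3.09, Ts6 at 2.91 and 2.83, WT at 2.75 and 2.83 and Ts15 at 2.78 and 2.60. Ts11 and Ts8 overlapped each other and lay above all WT and Ts15 arrays. The Ts11 difference was 0.30 ± 0.11 against WT (limma, adjusted p 0.14), 0.22 ± 0.09 against the other lines (adjusted p 0.18) and 0.24 against the other 8 arrays (exact permutation p 0.089). Values from the authors' deposited series table called it against WT (0.37, adjusted p 0.049). Smc4 was 0.51 ± 0.18 above WT in Ts8 (adjusted p 0.14) and 0.35 ± 0.18 in Ts11, and Smc2 0.42 ± 0.22 and 0.19 ± 0.22. The Smc2 replicates of WT were -0.77 and -0.12, so that its difference is poorly determined.

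**Figure D3:**
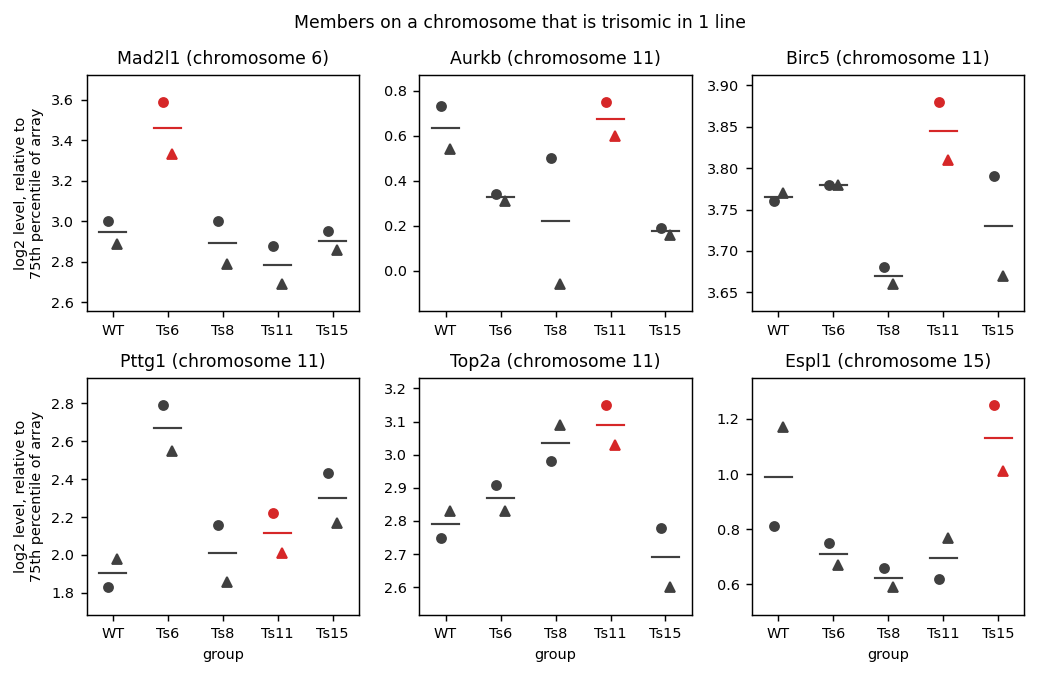
Log2 level, relative to the 75th percentile of the array, of the 6 genes on a chromosome trisomic in 1 line, with red for that line, circles for replicate 1, triangles for replicate 2 and bars for group means; the vertical axes differ. Mad2l1 is 0.57 above the other 8 arrays in Ts6, Espl1 overlaps WT, and Pttg1 is highest in Ts6 and not in Ts11.

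Set side by side, the point estimates of members with an added gene copy ranged from almost no rise to nearly the ratio of copies. The difference of the trisomic line from WT was 87.8% of log2(3/2) for Mad2l1, 51.6% for Top2a, 35.8% for Pttg1, 24.5% for Espl1, 13.7% for Birc5 and 6.89% for Aurkb, and 0 of the 6 passed the limma test against WT, with 2 (Mad2l1 and Top2a) at an unadjusted p under 0.05. These percentages are for the probe that stood for each gene, and other probes of Birc5, Pttg1 and Mad2l1 gave other values. The SE of the differences from WT ran from 0.10 (Birc5) to 0.18 (Aurkb), and differences between these genes were not tested. Against the other 8 arrays, 5 of 6 were higher and Pttg1 was lower. The order was another one there, with Espl1 (0.38) and Aurkb (0.33) above Top2a (0.24). The 6 tests against the other 8 arrays formed 1 family, in which no adjusted exact permutation p was below 0.13. Members on the other chromosomes, 32 in number, had a median difference from WT of 0.06 in Ts6, and 0 of them were called in any of the 4 lines by limma, with 5, 7, 3 and 0 at an unadjusted p under 0.05 in Ts6, Ts8, Ts11 and Ts15.

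Entry into mitosis is driven by Cdk1 with cyclin B, switched on by the phosphatase Cdc25c. On the probes that stood for these genes, the kinase was lower and the phosphatase higher in Ts6 than in the other trisomic lines. Cdk1 (mm9, chr10:68801053-68801112) read 1.26 and 1.19 in Ts6, with WT at 1.73 and 1.57, Ts8 at 1.63 and 1.69, Ts11 at 1.45 and 1.59 and Ts15 at 1.75 and 1.65. Both Ts6 arrays were below the other 8. Ts6 was lower than the mean of the other lines by a log2 difference of -0.40 ± 0.09, a ratio of 0.758 (limma, adjusted p 0.026), and differed from WT by -0.42 ± 0.11 (adjusted p 0.054). Leaving out either Ts6 array or Ts15 replicate 1 ended the call against the lines (differences of -0.44 to -0.36, adjusted p 0.057 to 0.16), as did the mean of all probes (-0.26, adjusted p 0.11), normexp (-0.40, adjusted p 0.052) and slide 1 alone (-0.36, adjusted p 0.070). The probes disagreed: a second one that overlaps the first gave -0.37 ± 0.13 against WT, and a dimmer one at chr10:68799513-68799572 gave -0.07 ± 0.18. On the second probe Ts11 was about as low as Ts6, at -0.36 ± 0.13 against WT. Against the other lines, Ts6 gave -0.37 ± 0.11 on the second probe and -0.02 ± 0.15 on the dimmer one.

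Cdc25c on chromosome 18 (mm9 probe, chr18:34903648-34903707) read 0.82 and 0.60 in Ts6, with WT at 0.09 and 0.33, Ts8 at -0.02 and 0.19, Ts11 at 0.30 and 0.58 and Ts15 at 0.19 and 0.00. Ts6 held the highest values, with Ts11 replicate 2 just below. The difference from the mean of the other lines was 0.51 ± 0.13 (limma, adjusted p 0.041) and that from WT 0.50 ± 0.16 (adjusted p 0.094). The call was lost without either Ts6 array (0.40 and 0.62), either Ts15 array (0.54 and 0.47), Ts8 replicate 1 (0.47) or Ts11 replicate 1 (0.46), and among the slide 1 arrays (0.45, adjusted p 0.094). It was also lost with no filter on dim probes (adjusted p 0.067), in the authors' series table (0.057) and with the replicate block (0.051). The cyclins Ccnb1 and Ccnb2, the kinases Aurka and Plk1, and the centriole kinase Plk4 were not called in any line against WT. Their differences ran from -0.17 (Plk1 in Ts11) to 0.54 ± 0.17 (Plk4 in Ts8, adjusted p 0.11).

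Kinetochore genes had the highest median of the role groups in Ts6, at 0.19 above WT, but not in the other lines. In Ts8 and Ts11 the chromosome condensation genes were higher, at medians of 0.42 and 0.30. In Ts15 the anaphase trigger and cohesion genes were, at 0.17. The kinetochore group comprises the centromeric histone Cenpa, the inner kinetochore proteins Cenph and Cenpk, and the outer proteins Cenpe and Cenpf. It also holds Ndc80, Nuf2, Spc24 and Spc25, which form the complex that grips microtubules. Point estimates against WT were above 0 for 9, 8, 8 and 7 of the 9 in Ts6, Ts8, Ts11 and Ts15. Over all genes 48.2%, 54.7%, 50.4% and 49.2% were above 0. The count in Ts6 takes in Nuf2, whose difference rounds to 0.00. Medians were 0.19, 0.27, 0.27 and 0.10, and 0 of 9 was called in any line by limma. At an unadjusted limma p under 0.05 there were 2, 2, 2 and 0 of them. The 4 comparisons share the WT arrays. Single values ran from -0.26 (Cenpa in Ts11) to 0.78 (Cenpf in Ts8), and Cenpf also had the widest intervals, -0.09 to 1.64 in Ts8. Cenpf was dim, at -5.00 and -4.11 in Ts8 and -5.61 and -5.04 in WT.

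Cenpk was lower in Ts15 than in the other trisomic lines. It lies on chromosome 13 (mm9 probe, chr13:105032892-105032951) and read 1.05 and 0.93 in Ts15, with WT at 1.07 and 1.08, Ts6 at 1.46 and 1.48, Ts8 at 1.46 and 1.75 and Ts11 at 1.35 and 1.43. Ts15 and WT were low and the other 3 lines high, with no overlap between these arrays. The difference of Ts15 from the mean of the other lines was -0.50 ± 0.10, a ratio of 0.706 (limma, adjusted p 0.014), and that of Ts15 from WT was -0.09 ± 0.12. Against WT, Cenpk was 0.53 ± 0.12 in Ts8 (adjusted p 0.059), 0.39 ± 0.12 in Ts6 (adjusted p 0.093) and 0.31 ± 0.12 in Ts11 (adjusted p 0.16). Its second probe, at chr13:105039517-105039576, gave -0.41 ± 0.10 for Ts15 against the other lines (adjusted p 0.031 in the fit over all probes). Without either Ts15 array the call was lost (-0.56 and -0.44).

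Low WT and Ts15 values beside higher Ts8 and Ts11 values were also seen in other members, among them Smc4, Top2a and Cenpf. Ndc80, Kif11 and Plk4 are given here and were picked after their values were seen. In Ndc80 the margin was small, with 1.47 in Ts8 against 1.46 in Ts15. How many of all genes share the pattern was not counted. Ndc80 read 1.22 and 1.32 in WT, with Ts6 at 1.34 and 1.45, Ts8 at 1.47 and 2.03, Ts11 at 1.79 and 1.92 and Ts15 at 1.46 and 1.22. It was 0.58 ± 0.19 above WT in Ts11 (limma, adjusted p 0.10), the lowest adjusted p of any member in that line. Kif11, the kinesin that pushes spindle poles apart, read 0.82 and 0.98 in WT, with Ts6 at 0.85 and 0.90, Ts8 at 1.21 and 1.74, Ts11 at 1.11 and 1.26 and Ts15 at 0.90 and 0.74. Plk4 read -0.28 and -0.26 in WT, with Ts6 at -0.06 and -0.04, Ts8 at -0.02 and 0.56, Ts11 at 0.00 and 0.02 and Ts15 at -0.30 and -0.33. In Ndc80, Kif11 and Plk4, Ts8 replicate 2 was the highest array, and Ts8 replicate 1 lay 0.53 to 0.57 below it. The other spindle genes, the microtubule depolymerase Kif2c and the spindle assembly factor Tpx2, had values from -0.22 to 0.10 against WT.

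**Figure D4:**
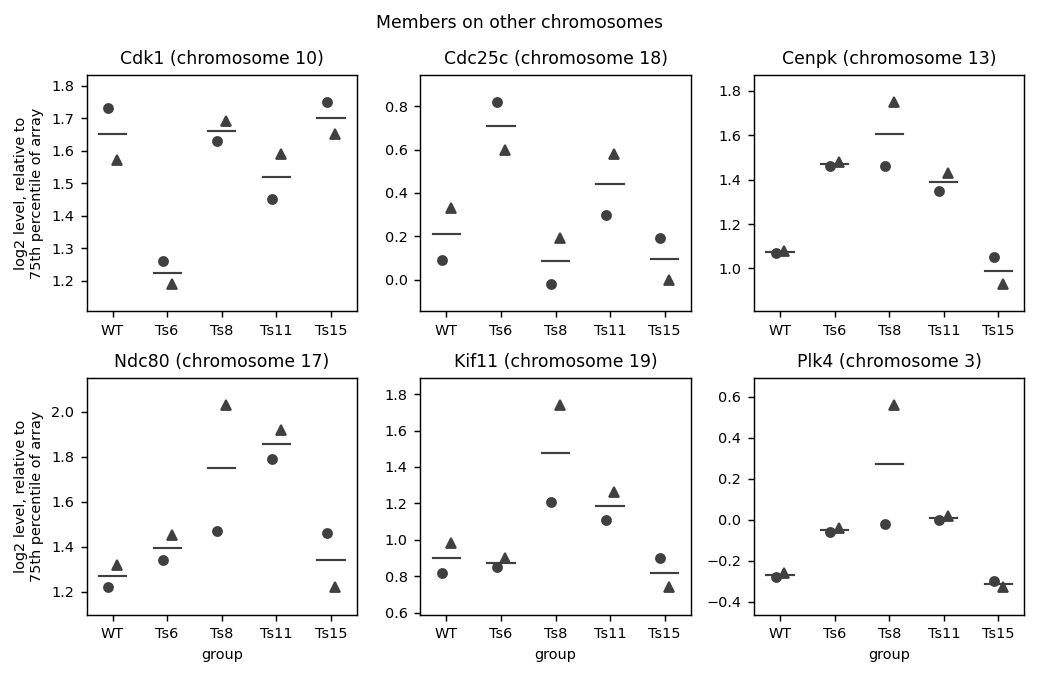
Log2 level, relative to the 75th percentile of the array, of 6 genes on chromosomes trisomic in no line, with circles for replicate 1, triangles for replicate 2 and bars for group means; the vertical axes differ. Cdk1 is lowest and Cdc25c highest in Ts6, Cenpk is low in WT and Ts15, and Ts8 replicate 2 is the highest array for Ndc80, Kif11 and Plk4.

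Ts8 replicate 2 was the highest of the 10 arrays for 13 of the 38 members (34.2%), against 17.2% of all genes tested. These were Bub1, Ttk, Plk4, Ccnb1, Cenpe, Cenpf, Cenpk, Ndc80, Spc25, Sgol1, Kif11, Smc2 and Smc4. Ts15 replicate 2 was the lowest array for 11 members (28.9%, against 14.7% of all genes). Ts6 replicate 1 was the highest for 9 (23.7%, also above its share over all genes), among them Mad2l1, Pttg1 and Cdc25c. The replicates of Ts8 differed by more than 0.3 in 8 members, those of WT in 6, Ts6 in 2, and Ts11 and Ts15 in 1 each. The median replicate difference of the members, regardless of sign, was 0.14 in Ts8 and 0.12 in WT, beside 0.18 and 0.17 over all genes. In the other groups it was also below that of all genes. With both replicates the limma fit called no member in Ts8 against WT, and the median difference of the members was 0.09. It was 0.05 without Ts8 replicate 1 and 0.11 without Ts8 replicate 2. A fit that leaves 1 array in a group assumes that it varies like those of the other groups, so its calls are not given here.

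Comparing each line with the mean of the other 3, which uses no WT array, gave 4 called members in Ts6 (Mad2l1, Pttg1 and Cdc25c higher, Cdk1 lower), where 13.3% of all genes were called. It gave 2 in Ts15 (Espl1 higher, Cenpk lower), where 19.2% of all genes were called, and 0 in Ts8 (12.9%) and 0 in Ts11 (7.53%). At an unadjusted p under 0.05 this limma fit gave 6, 6, 5 and 9 members in Ts6, Ts8, Ts11 and Ts15, against 30.0%, 31.0%, 24.4% and 36.1% of all genes. In Ts6 the 4 called members are 10.5% of the set, close to the share over all genes. The members' median difference from the other lines was 0.07, -0.01 and -0.03 in Ts8, Ts11 and Ts15. Without Ts8 replicate 1 it was 0.04, -0.04 and -0.05. In Ts6 it was -0.03, and -0.05 without Ts6 replicate 1. Fibroblast markers were counted in these comparisons too. Their median difference from the other lines was -0.24 in Ts6, with 1 of 17 called lower (Col5a2). In Ts15 it was 0.39, with 4 of 17 called higher (Loxl1, Dcn, Acta2 and Thy1). In Ts8 and Ts11 it was -0.18 and -0.04, with 0 called. These counts are to be read against the shares of all genes called in the same comparisons. The part of feeder RNA in the members' values was not tested.

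Beyond the 38 genes, 127 others of the same machinery in 7 lists (inner kinetochore, outer kinetochore, checkpoint regulators, anaphase-promoting complex, cohesin and condensin, mitotic kinesins and midzone, G1 and S phase cyclins and licensing) were counted in the same way. Against WT, 2 rose and 3 fell in Ts6 (3.94% called), 5 rose and 1 fell in Ts8 (4.72%), 6 rose and 1 fell in Ts11 (5.51%), and 1 rose in Ts15 (0.787%), to be read against the shares over all genes above. Each line against the mean of the other 3 gave 4 higher and 2 lower in Ts6 (4.72%), 8 higher and 4 lower in Ts8 (9.45%), 6 higher and 1 lower in Ts11 (5.51%), and 3 higher and 16 lower in Ts15 (15.0%), where 13.3%, 12.9%, 7.53% and 19.2% of all genes were called. Esco2, the acetyltransferase that establishes sister cohesion, and Tex14, a germ cell protein of intercellular bridges that also binds kinetochores, rose in Ts6, Ts8 and Ts11 and in the mean of the 4 lines. Esco2 read -0.27 and -0.04 in WT, with Ts6 at 0.47 and 0.63, Ts8 at 0.54 and 0.80, Ts11 at 0.66 and 0.65 and Ts15 at 0.12 and -0.05, with limma differences of 0.70, 0.82 and 0.81 ± 0.14 in the first 3 lines (adjusted p 0.021, 0.031 and 0.016). Ts15 was near WT here too, as in Cenpk. For Tex14, which lies on chromosome 11, the differences were 0.79, 1.06 and 1.04 ± 0.18.

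The other calls against WT were on both trisomic and other chromosomes. Ts11 was higher for Cdc6, which loads the replicative helicase and lies on chromosome 11 (0.79 ± 0.11, limma, adjusted p 0.0078). Ts15 was higher for Racgap1, a midzone protein on chromosome 15 (0.55 ± 0.12, adjusted p 0.034). Also higher in Ts11 were Spdl1 (0.71 ± 0.11, adjusted p 0.011), which recruits dynein to kinetochores, the histone H3 kinase gene Haspin (0.50 ± 0.10, adjusted p 0.029), both on chromosome 11, and Anapc10 on chromosome 8, a subunit of the anaphase-promoting complex (0.68 ± 0.11, adjusted p 0.014). Anapc10 was dim, at -4.23 and -4.46 in Ts11 and -4.99 and -5.06 in WT. The lowest values read as well above background were -6.49 and -5.98 on the Ts11 arrays. In Ts8 the inner kinetochore gene Cenpn, on chromosome 8, was 0.71 ± 0.14 higher (adjusted p 0.044). There the spindle proteins Nusap1 and Kif15 were each 0.72 higher, and Cenpi, an inner kinetochore gene on the X chromosome, fell by 0.88 ± 0.10 (adjusted p 0.015), reading -0.08 and -0.15 against 0.78 and 0.75 in WT. In Ts6, 3 genes of G1 were lower. Ccnd2 (cyclin D2), which lies on chromosome 6 itself, fell by 1.72 ± 0.37 (adjusted p 0.029), with -0.39 and 0.89 against 1.75 and 2.21 in WT. Cdk6, the kinase partner of D cyclins, fell by 1.23 ± 0.23 and Ccnd1 (cyclin D1) by 0.78 ± 0.18. Cdk6 was dim, at -5.61 and -5.43 in Ts6 and -4.10 and -4.48 in WT. The lowest values read as well above background were -6.82 and -6.54 on the Ts6 arrays. The summed fibroblast markers were also lower in Ts6 (5.23 and 5.51) than in WT (5.65 and 5.67), and their part in these values was not tested. In Ts11 the centromere protein gene Cenpb fell by 0.51 ± 0.12 (adjusted p 0.043).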

How the data were processed

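Per the file headers, the deposited intensity values came from 1-colour Agilent arrays read with Agilent Feature Extraction 10.7.3.1, with probe positions on mm9. The authors' deposited series table holds log2 values of the same arrays, whose normalization is not given in the sources used here, and was an alternative. The processed signal was taken as log2 minus the 75th percentile of the array, and spots of a probe were averaged. Of 55681 probes, 176 with flagged spots were left out; a probe was kept where both arrays of some group read it well above background (43056 probes). RefSeq accessions updated gene names (26762 of 28390 matched). The file of Ts15 replicate 2 had 58 gene names changed, so names came from WT replicate 1. The probe with the highest mean stood for its gene. limma 3.58.1 in R 4.3.3 fitted 1 mean per group (5 residual and 2.67 prior degrees of freedom), two-sided, and was tested on simulated data. Exact permutation tests went through every split in Python 3.11.15 with numpy 2.4.6, and scipy 1.17.1 gave the t quantile of the confidence intervals. Members on chromosomes 6, 8, 11 and 15 and called members were named with every array, and other members by range. Exceptions were Bub1, Ndc80, Kif11 and Plk4, chosen after their values were seen. Single values were also given for other uncalled members, among them Smc2, Smc4 and Cenpf. Pathway genes were named by the 3 highest and 3 lowest calls against WT (Nusap1 and Kif15 tied), and the others called were added later. The members, lists and tests were chosen with earlier results of these data known. Alternatives were other normalizations, background correction, filters, probe rules, arrays left out, a replicate block, and slide 1 alone.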

Additional observations from a re-analysis of the deposited data

Results flagged for a closer look

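Differences between 1 trisomic line and the mean of the other 3 passed the test in 6 members, by limma with an adjusted p under 0.05. In Ts6 the log2 differences were 0.59 for Mad2l1, 0.53 for Pttg1, 0.51 for Cdc25c and -0.40 for Cdk1. In Ts15 they were 0.45 for Espl1 and -0.50 for Cenpk. Mad2l1 in Ts6 and Espl1 in Ts15 lie on the chromosome that is trisomic in that line, and the other 4 do not. No member on chromosome 11 passed this limma test in Ts11 (2 had an unadjusted p under 0.05), and both Ts15 arrays were on a slide of their own.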

How the results depend on the processing

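The numbers of called members moved by more than 1.5 times under these settings. In Ts6 against WT the count was 1 and became 3 with quantile normalization, 3 in the authors' series table (Pttg1, Cdk1 and Mad2l1), 2 with the replicate block, 0 with only the 2 groups compared, and 0 without any 1 of the 4 arrays. Mad2l1 against WT was called with quantile normalization (0.54, adjusted p 0.032), the series table (0.50, 0.037), the mean of all probes (0.56, 0.035) and the block (0.51, 0.024). With the series table Ts8 against WT gave 1 (Cenpk), and Ts11 gave 1 against WT and 1 against the other lines (Top2a both times). With 1 array left out, the counts ran from 0 to 5 in Ts8 against WT, and, against the other lines, 0 to 3 (Ts6), 0 to 3 (Ts8), 0 to 1 (Ts11) and 0 to 5 (Ts15), and stayed at 0 in Ts11, Ts15 and the mean of the lines against WT. The share of all genes called moved as well when an array was left out, so these counts do not describe the members alone. Ts6 against the other lines fell from 4 to 2 with no filter on dim probes, 2 with the mean of all probes and 2 on slide 1 alone. Ts15 against the other lines went from 2 to 4 with normexp, 1 with no filter and 1 with the replicate block. With quantile normalization and with the series table it was 3 (Top2a, Spc24 and Cenpk), without Espl1 (adjusted p 0.052 and 0.055), and normexp called Top2a and Cdc20 beside Espl1 and Cenpk. With the mean of all probes the single call in Ts6 against WT was Mad2l1 in place of Pttg1.

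Of the members on trisomic chromosomes, Birc5 reached 0.22 (exact permutation p 0.022) and Top2a 0.32 (p 0.044) in the series table, and Espl1 0.37 (p 0.067) with normexp. With 1 array of the line left out, Mad2l1 ran from 0.44 to 0.70 (p 0.11, the smallest that 9 splits allow) and Espl1 from 0.26 to 0.49. Against WT the direction turned for Aurkb in Ts11 (-0.05 and -0.04 without WT replicate 2 or Ts11 replicate 1, in a range of -0.05 to 0.13), for Espl1 in Ts15 (-0.04 without WT replicate 1) and for Pttg1 in Ts11 (-0.01 with the mean of all probes). The main fit did not pair samples by replicate number. Deviations from group means of same-numbered arrays correlated at -0.10 to 0.39 between groups. The highest values were 0.39 for Ts8 with Ts11 and 0.21 for Ts6 with Ts15. With the replicate block the SE of Mad2l1 in Ts6 against WT went from 0.14 to 0.09. The replicate number is also the slide row (replicate 1 in row 1, replicate 2 in row 2), so the block holds array position as well. The causes of these changes were not tested.

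With 2 arrays a group, the interval of a member's difference reached a median of 0.30 to either side, and each of the 7 calls of a member ended when a particular array of the line was left out (either one, except that Mad2l1 kept its call without Ts6 replicate 2, at 0.72). Each group is 1 line, so trisomy, line and position on the slide cannot be told apart. Probes of the same gene differed in sign against WT for 3, 3, 5 and 6 of the 12 members with several probes (Ts6, Ts8, Ts11 and Ts15).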
